A study of Mus musculus with 24 samples.

Results

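A panel of 10 target genes of the tumour suppressor p53 was followed through 24 mouse tumour libraries: Cdkn1a, Ccng1, Mdm2, Bax, Bbc3, Pmaip1, Phlda3, Eda2r, Zmat3 and Trp53inp1. They were chosen by name, by matching the Ensembl IDs of the files to GENCODE symbols, and are 10 of the 55335 genes listed. The tumours were of MC38, a mouse colon carcinoma line, or B16, a mouse melanoma line. Their cells carried a Chek2 knockout (KO) or were parental (WT), and the animals received an antibody to the T cell checkpoint protein PD-1 or PBS. The groups were therefore MC38 KO anti-PD-1, MC38 KO PBS, MC38 WT anti-PD-1, MC38 WT PBS, B16 KO anti-PD-1, B16 KO PBS, B16 WT anti-PD-1 and B16 WT PBS, with 3 libraries in each of the 8. How the knockout was made, whether a KO line is a single clone, and the strain and age of the mice are not given in the sources used here. The labels do not say that libraries of a group come from separate animals. The p-values therefore set differences against the spread between these libraries, which may be partly technical. The labels tell no KO lines apart, so the knockout and other differences between KO and parental cells cannot be separated.

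The transcription factor p53 is kept scarce by the ubiquitin ligase MDM2, and it accumulates when DNA damage kinases phosphorylate both proteins. CHK2, the product of Chek2, is one of these kinases: it is activated by ATM at double-strand breaks and phosphorylates p53. Active p53 binds DNA as a tetramer at paired half-sites and turns on genes that arrest the cell cycle, repair DNA, start apoptosis and, through Mdm2, limit p53 itself. Many of these genes are also transcribed without p53.

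Promoters are shown for 5 members that differed in what they did across these tumours, and whether sequence bears on this was not tested. Averaged over treatments, Cdkn1a and Phlda3 were higher in KO tumours of both lines, whereas Mdm2, Ccng1 and Bax were called in neither. In B16 under anti-PD-1 alone, Bax was called higher and Ccng1 lower in KO. Each stretch is the 250 bases before a RefSeq start site in GRCm38.p6, written in the direction of transcription, and capitals mark exact matches to the p53 half-site consensus, which reads the same on both strands.
Cdkn1a promoter, chr17:29090729-29090978, plus strand: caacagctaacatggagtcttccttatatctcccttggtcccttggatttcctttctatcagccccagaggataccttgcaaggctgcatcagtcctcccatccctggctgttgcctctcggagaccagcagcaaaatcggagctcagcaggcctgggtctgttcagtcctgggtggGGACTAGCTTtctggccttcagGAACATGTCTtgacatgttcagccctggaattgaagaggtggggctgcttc
Phlda3 promoter, chr1:135765835-135766084, plus strand: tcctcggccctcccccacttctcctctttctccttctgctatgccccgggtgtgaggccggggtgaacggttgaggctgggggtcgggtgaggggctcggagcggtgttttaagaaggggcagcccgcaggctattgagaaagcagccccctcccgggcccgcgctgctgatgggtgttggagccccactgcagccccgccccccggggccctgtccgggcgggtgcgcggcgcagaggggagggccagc
Ccng1 promoter, chr11:40755287-40755536, minus strand: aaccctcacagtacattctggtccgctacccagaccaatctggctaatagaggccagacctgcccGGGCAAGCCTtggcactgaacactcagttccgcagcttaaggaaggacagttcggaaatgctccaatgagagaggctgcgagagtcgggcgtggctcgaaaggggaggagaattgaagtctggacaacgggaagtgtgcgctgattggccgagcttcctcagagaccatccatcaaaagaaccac
Mdm2 promoter, chr10:117710759-117711008, minus strand: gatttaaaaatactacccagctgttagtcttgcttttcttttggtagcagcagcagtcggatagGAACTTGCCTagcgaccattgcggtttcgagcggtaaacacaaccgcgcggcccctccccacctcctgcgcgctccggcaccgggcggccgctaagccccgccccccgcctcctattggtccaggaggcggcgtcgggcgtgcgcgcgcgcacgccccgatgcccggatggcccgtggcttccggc
Bax promoter, chr7:45466899-45467148, minus strand: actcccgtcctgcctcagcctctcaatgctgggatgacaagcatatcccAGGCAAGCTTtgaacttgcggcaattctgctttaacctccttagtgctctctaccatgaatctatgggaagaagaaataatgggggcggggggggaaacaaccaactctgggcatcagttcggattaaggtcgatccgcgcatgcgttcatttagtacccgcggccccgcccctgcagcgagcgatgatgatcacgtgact
The half-sites of Cdkn1a start 73 and 51 bases before the start site, that of Ccng1 185, that of Mdm2 186 and that of Bax 201 bases before it. Over windows of 300 bases, which add 50 bases after the start, 8.36% of the 32851 promoters in the table held at least 1 half-site and 0.359% held 2 or more. A 20-base element of 2 adjoining half-sites with at most 1 mismatch was present in 0.0883% of all promoters (29 of them), and Cdkn1a and Ccng1 were among these. Of the members' 10 windows, which belong to 7 genes, 4 held a half-site, and the windows of Phlda3, Bbc3 and Eda2r held no complete one. The Phlda3 window ends partway through a possible half-site, whose last letters lie outside it and were not read. The window of a second Cdkn1a start site, chr17:29093519-29093818, held none either, and its best 20-base element had 5 mismatches. A match describes letters and not binding. Sequence outside the windows, introns included, was not searched, so a gene may hold p53 sites that are not marked here. Pmaip1, Zmat3 and Trp53inp1 are named only.

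Values are FPKM, which relate a gene's sequenced fragments to the length of its transcript and to the size of the library. The FPKM of a library summed to 310868 to 398474, and steps between low values put depth at 13210000 to 23840000 full-read equivalents. All 10 members were tested in MC38, and in B16 Pmaip1 and Eda2r fell under the filter of 1 FPKM in 3 libraries. The knocked-out gene served as a check of the labels. In MC38 KO libraries Chek2 had 3.06 to 3.37 FPKM under anti-PD-1 and 1.92 to 2.4 under PBS. The 6 MC38 WT libraries had 4.61 to 6.14 FPKM. B16 KO libraries had 5.64 to 6.75 FPKM and B16 WT libraries 7.17 to 9.29. KO and WT thus did not overlap in either line although RNA remained. Likewise separate were 10.5% of all genes tested in MC38 and 3.76% in B16. The B16 difference under PBS, 5.66 against 7.6 FPKM on average, was not called, so the check is weaker in B16. The 7 melanocyte markers summed to 4885 to 6285 FPKM in B16 and to 1.01 to 4.03 in MC38. The 8 epithelial markers were low in MC38, at 1.18 to 48.1 FPKM in sum, with the intestinal genes Vil1 and Cdx2 under 0.1 FPKM in all 12 MC38 libraries. The 3 B16 KO anti-PD-1 libraries stood apart, with FPKM sums of 375193 to 398474 against at most 344059 in the other 21 libraries. In these tumours fewer cells of a type and less RNA per cell cannot be told apart.

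The members did not move as a block with Chek2 genotype. In MC38 tumours under anti-PD-1, Cdkn1a and Phlda3 were higher and Eda2r was lower in KO, 3 of 10 members called (limma, adjusted p under 0.05) where 12.1% of the 14209 genes tested were called. Under PBS, Cdkn1a, Phlda3 and Zmat3 were higher in KO, again 3 of 10, against 23.4% of all genes. In B16 under anti-PD-1, 5 of 8 members were called, Cdkn1a, Phlda3 and Bax higher and Ccng1 and Trp53inp1 lower, against 40.8% of 13627 genes. Under PBS no B16 member was called (0 of 8), where 0.47% of genes were, 64 of them, and 1810 genes had an unadjusted p under 0.05. The medians of the members' log2 differences between KO and WT were 0.10 and -0.03 in MC38 under anti-PD-1 and PBS and 0.00 and 0.07 in B16, beside 0.00 and 0.01 in MC38 and -0.05 and -0.05 in B16 over all genes tested. In MC38 under PBS the share of members called is not far from that of genes at large.

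KO and WT libraries did not overlap for 5 of 10 members in MC38 under anti-PD-1 (3 higher and 2 lower in KO), where 34.1% of all genes did not, and for 5 of 10 under PBS (3 higher and 2 lower), beside 39.8%. In B16 they did not overlap for 4 of 8 members under anti-PD-1 (50.8% of all genes) and for 2 of 8 under PBS, Cdkn1a and Phlda3 (21.2%). Over both treatments together, the 6 KO and 6 WT libraries of a line were separate for 3 of 10 members in MC38 (Cdkn1a and Phlda3 higher, Eda2r lower; 10.5% of all genes) and for 2 of 8 in B16 (Cdkn1a and Phlda3 higher; 3.76%). Between anti-PD-1 and PBS, libraries were separate for 7 of 10 members in MC38 KO tumours (30.4%), 3 of 10 in MC38 WT tumours (18.2%), 5 of 8 in B16 KO tumours (53.8%) and 0 of 8 in B16 WT tumours (6.54%). In both comparisons that hold the B16 KO anti-PD-1 libraries the members' shares are near those of all genes.

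**Figure D1:**
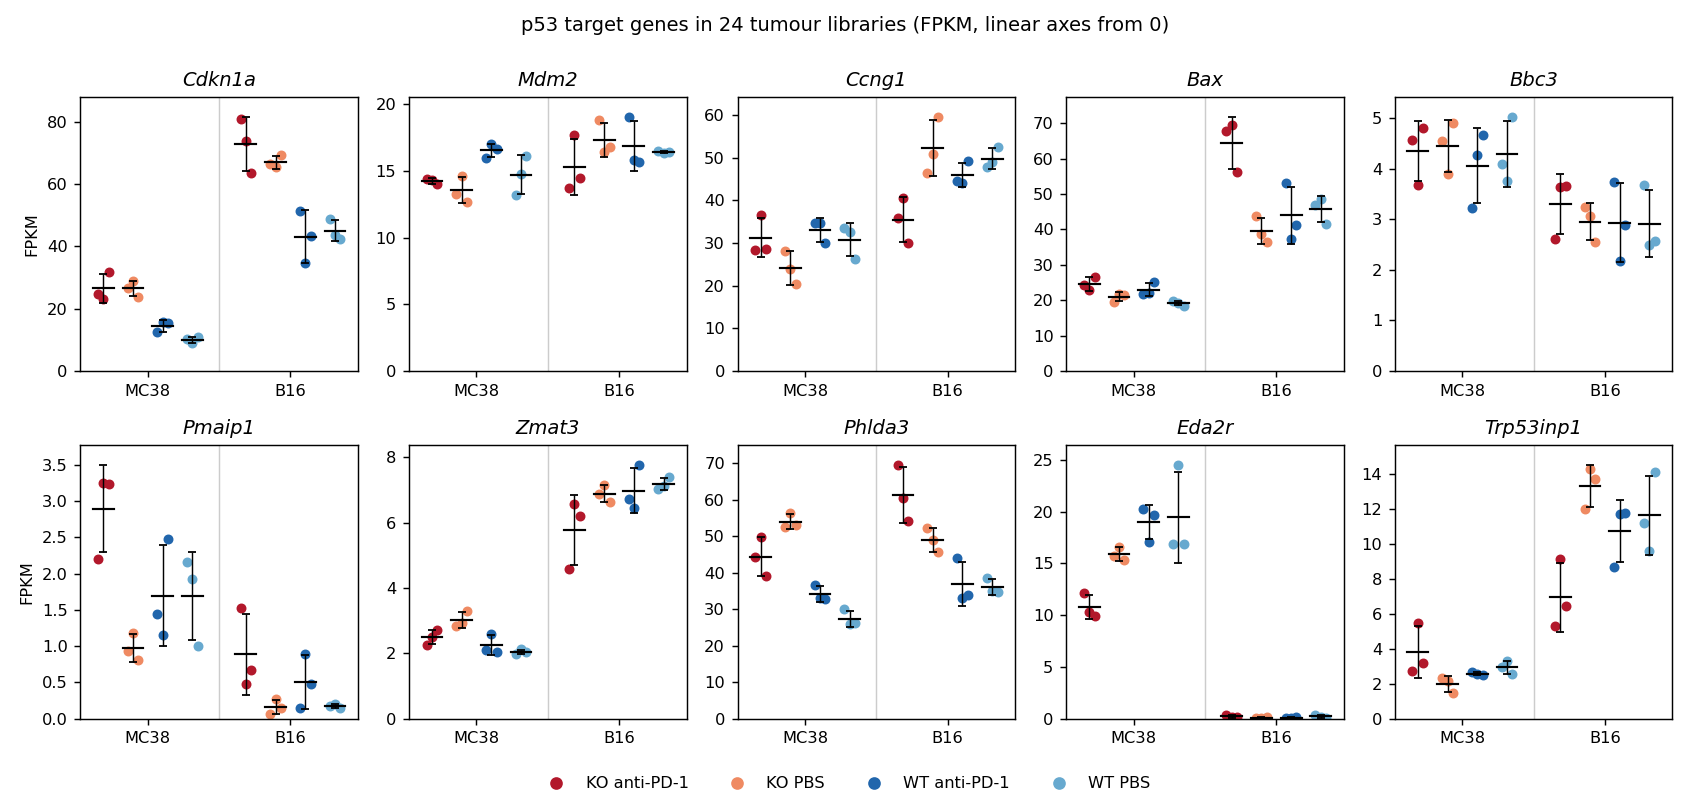
FPKM of the 10 genes (vertical axes, linear from 0) in each of the 24 libraries, with MC38 left of B16 in each panel and the 4 groups of a line in the order of the legend; points are libraries, horizontal bars are means and whiskers are 1 SD (n = 3). Cdkn1a of the 6 KO libraries of each line lies above that of the 6 WT libraries, and Eda2r is at most 0.379 FPKM in every B16 library.

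Cdkn1a encodes p21, the inhibitor of cyclin-dependent kinases through which p53 halts the cell cycle (ENSMUSG00000023067, mm10 chr17:29090976-29100727, plus strand). In MC38 under anti-PD-1 it had 24.7, 23.1 and 31.7 FPKM in KO libraries, against 12.4, 15.7 and 15.4 in WT libraries. Under PBS it had 26.8, 28.9 and 23.8 FPKM in KO libraries, against 10.3, 8.91 and 10.8 in WT libraries. The lowest KO library thus lay above the highest WT library under either treatment. The log2 difference was 0.82 ± 0.13 (SE) under anti-PD-1 (limma adjusted p = 0.00343) and 1.32 ± 0.13 under PBS (limma adjusted p = 0.000161), and means were 1.83-fold and 2.65-fold higher in KO.

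In MC38 WT tumours Cdkn1a averaged 14.5 ± 1.84 FPKM (SD, n = 3) under anti-PD-1 and 10 ± 0.97 under PBS, with no overlap. In KO tumours the means were 26.5 ± 4.56 and 26.5 ± 2.56 FPKM. Neither the WT difference of 0.49 (limma adjusted p = 0.158) nor the interaction of -0.50 ± 0.184 (limma adjusted p = 0.163) passed the threshold.

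B16 tumours held more Cdkn1a RNA and showed a difference of the same sign. Under anti-PD-1 the KO libraries had 80.8, 73.8 and 63.7 FPKM, against 51.4, 34.6 and 43.4 in WT libraries. Under PBS they had 66.4, 65.4 and 69.4 FPKM, against 48.8, 43.8 and 42.4 in WT libraries. KO and WT were separate under both treatments. The log2 difference was 0.75 ± 0.132 under anti-PD-1 (limma adjusted p = 0.0013). Under PBS it was 0.57 ± 0.132, which did not pass (limma adjusted p = 0.103). The PBS difference was called in 1 of 21 alternatives, with all 24 libraries in one fit (0.0328). Averaged over treatments, KO exceeded WT by 1.07 ± 0.0919 in MC38 and 0.66 ± 0.0931 in B16 (limma, adjusted p = 3.21e-05 and 0.000809). The difference between the lines, 0.41 ± 0.136, passed (limma adjusted p = 0.0265) but did not pass without MC38 WT PBS replicate 2, MC38 WT anti-PD-1 replicate 1 or MC38 KO anti-PD-1 replicate 3 (0.051, 0.0522 and 0.0522), with no filter on low values (0.0564) or with median-ratio scaling (0.0715). A gene model on the opposite strand, AC167363.2, overlaps Cdkn1a and reached at most 2.3 FPKM in the 24 libraries. Whether strand was used in counting is not given in the sources used here.

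Ccng1 encodes cyclin G1, a p53 target that recruits a phosphatase to MDM2 (mm10 chr11:40748552-40755311, minus strand). In MC38 under anti-PD-1 it had 28.4, 36.5 and 28.7 FPKM in KO libraries and 34.8, 34.7 and 29.9 in WT libraries, and under PBS 28.2, 23.9 and 20.3 in KO and 33.5, 32.6 and 26.3 in WT. Groups overlapped in both, and the log2 differences, -0.09 ± 0.139 and -0.34 ± 0.139, were not called (limma adjusted p = 0.721 and 0.0969). In B16 under anti-PD-1 it had 35.9, 40.5 and 29.9 FPKM in KO libraries, against 44.6, 44.1 and 49.1 in WT libraries, all KO values lying below. KO minus WT was -0.38 ± 0.116 (limma adjusted p = 0.0249), and this call was lost in 7 of 20 alternatives. These were correction for transcript length (-0.29, limma adjusted p = 0.0983), no filter on low values (0.0545), median-ratio scaling (-0.31, 0.0559), the 6 libraries alone (0.0554), and the fits without B16 WT anti-PD-1 replicate 3 or B16 KO anti-PD-1 replicate 1 or 3 (0.0875, 0.051 and 0.0824). Under PBS KO libraries had 46.5, 50.9 and 59.4 FPKM and WT libraries 47.8, 49 and 52.5, which overlapped.

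Mdm2, the gene of the ubiquitin ligase that closes the feedback loop (ENSMUSG00000020184, mm10 chr10:117688875-117710758, minus strand), was not called between KO and WT in either line. In MC38 under anti-PD-1 it had 14.4, 14.3 and 14.0 FPKM in KO libraries, against 16, 17.0 and 16.6 in WT libraries. With PBS the KO libraries had 13.3, 14.6 and 12.7 FPKM, against 13.2, 14.8 and 16.1 in WT libraries. The KO values lay below all WT values under anti-PD-1 and overlapped with them under PBS. The log2 differences were -0.20 ± 0.077 under anti-PD-1, -0.11 ± 0.077 under PBS and -0.16 ± 0.0545 averaged (limma adjusted p = 0.111, 0.334 and 0.0535). In B16 the averages over 6 libraries were 16.3 ± 1.91 FPKM in KO and 16.6 ± 1.23 in WT, a log2 difference of -0.03 ± 0.0743 (limma adjusted p = 0.797). Averaged over treatments, then, Mdm2 was called in neither line and Cdkn1a in both.

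Among the apoptosis genes, Bax, whose product perforates the outer mitochondrial membrane (mm10 chr7:45461697-45466898, minus strand), differed in B16 under anti-PD-1. It had 67.7, 69.4 and 56.1 FPKM in B16 KO anti-PD-1 libraries, against 53.1, 37.4 and 41.4 in WT anti-PD-1 libraries. In the PBS arm Bax had 43.7, 38.6 and 36.4 FPKM in KO libraries and 47.0, 48.7 and 41.6 in WT libraries. Treated KO tumours were above every other B16 library, whereas under PBS KO and WT overlapped with the KO mean lower. The log2 difference was 0.55 ± 0.133 under anti-PD-1 (limma adjusted p = 0.0076) and -0.21 ± 0.133 under PBS (limma adjusted p = 0.555). In MC38 the KO minus WT difference was 0.11 ± 0.0552 averaged over treatments, with overlapping groups (limma adjusted p = 0.174). A same-strand gene model that overlaps Bax, Gm45808, reached at most 0.173 FPKM.

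Bbc3, which encodes the BH3-only protein PUMA (mm10 chr7:16308393-16318205, plus strand), did not differ between genotypes beyond the spread of libraries. Its 6 MC38 KO libraries had 3.67 to 4.9 FPKM with a median of 4.55, and its 6 MC38 WT libraries 3.23 to 5.01 with a median of 4.18. The B16 KO libraries had 2.55 to 3.65 FPKM with a median of 3.16, and the B16 WT libraries 2.18 to 3.74 with a median of 2.72. All ranges overlapped, and the averaged log2 differences were 0.07 ± 0.096 in MC38 and 0.08 ± 0.121 in B16 (limma adjusted p = 0.656 and 0.653).

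Pmaip1 encodes NOXA, another BH3-only protein, which binds MCL1 (mm10 chr18:66458533-66465565, plus strand). It was higher under treatment in MC38 KO tumours: 2.2, 3.25 and 3.24 FPKM under anti-PD-1, against 0.93, 1.18 and 0.806 under PBS. The MC38 WT libraries had 1.45, 1.15 and 2.48 FPKM under anti-PD-1 and 2.16, 1.92 and 1.0 under PBS, which overlapped. Treated KO tumours therefore exceeded untreated KO tumours without overlap, while the KO PBS libraries overlapped with the lowest WT libraries. The treatment difference in KO was 0.97 ± 0.213 (limma adjusted p = 0.0169), and the call was lost with no filter on low values (0.0512) and without MC38 KO PBS replicate 3 or MC38 KO anti-PD-1 replicate 2 or 3 (0.0708, 0.0718 and 0.0632). The interaction, 0.98 ± 0.301, did not pass (limma adjusted p = 0.11). In B16 it was at most 1.52 FPKM in KO and 0.894 FPKM in WT libraries and was not tested.

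Phlda3 encodes a small pleckstrin-homology protein that competes with AKT for membrane lipids and so restrains survival signalling (ENSMUSG00000041801, mm10 chr1:135766119-135769136, plus strand). In MC38 under anti-PD-1 it had 44.3, 49.8 and 39.1 FPKM in KO libraries, against 36.6, 33.2 and 32.7 in WT libraries. With PBS the levels were 52.6, 56.5 and 53 FPKM in KO libraries, against 30, 26.0 and 26.1 in WT libraries. KO lay above WT without overlap under both treatments, and the gap was wider under PBS. The log2 difference was 0.36 ± 0.0917 under anti-PD-1 (limma adjusted p = 0.027) and 0.96 ± 0.0917 under PBS (limma adjusted p = 0.000143). The call under anti-PD-1 was lost in 6 of 20 alternatives, those without MC38 WT anti-PD-1 replicate 2 or 3 or MC38 KO anti-PD-1 replicate 1 or 2 among them (0.0722, 0.0833, 0.0706 and 0.0862).

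In B16 Phlda3 showed the same order of genotypes. Under anti-PD-1 it had 69.6, 60.4 and 54.3 FPKM in KO libraries, against 44, 33.2 and 33.8 in WT libraries. With PBS the B16 KO libraries had 52.2, 48.9 and 45.7 FPKM, against 38.6, 35.1 and 34.7 in WT libraries. Here too KO and WT were separate. The log2 difference was 0.72 ± 0.12 under anti-PD-1 (limma adjusted p = 0.000966). Under PBS it was 0.43 ± 0.12 (limma adjusted p = 0.165), called in 1 of 21 alternatives (0.0456, all 24 libraries in one fit). Averaged over treatments it was 0.66 ± 0.0648 in MC38 and 0.57 ± 0.0847 in B16 (limma, adjusted p = 6.71e-05 and 0.00103), and the difference between the lines was 0.09 ± 0.109 (limma adjusted p = 0.576). Averaged calls took in 4 of 10 members in MC38 (27.4% of all genes) and 2 of 8 in B16 (26.5% of all genes), and Cdkn1a and Phlda3 were the pair called in both.

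**Figure D2:**
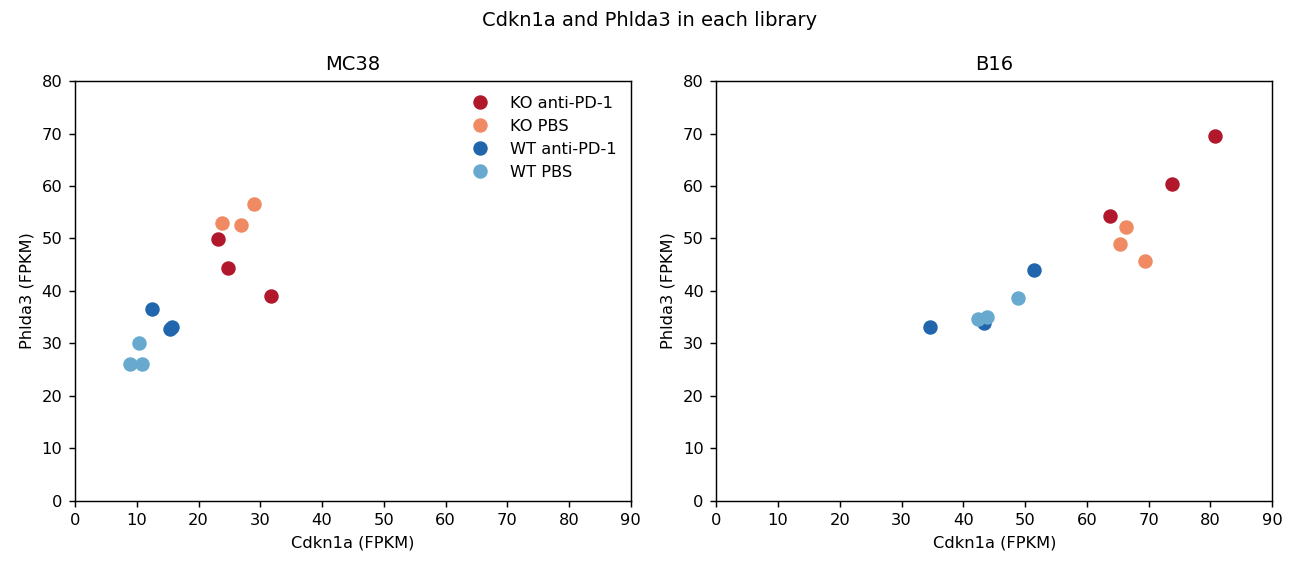
Phlda3 (vertical, FPKM) against Cdkn1a (horizontal, FPKM) in each library, MC38 left and B16 right, with colours for genotype and treatment. In each line the 6 KO libraries lie above and to the right of the 6 WT libraries, and B16 libraries lie further right than MC38 libraries of the same genotype.

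Phlda3 was also the gene whose values followed Cdkn1a most closely. Among 10445 protein-coding genes tested in both lines and ranked by the smaller of the 2 correlations over the 12 libraries of each line, the first 3 were Phlda3 (Pearson's r of 0.87 in MC38 and 0.94 in B16), Rheb (0.87 and 0.86) and Txn2 (0.91 and 0.86). These r describe libraries that fall into KO and WT clusters and share depth and composition, so no p is given. Mdm2 ranked 4877 for likeness to Cdkn1a (r of -0.41 and -0.05), Ccng1 5086 and Bax 319. The genes most like Mdm2 were Clk4 (0.76 and 0.74), Appl2 (0.69 and 0.77) and Otud1 (0.68 and 0.69).

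Eda2r, the receptor for ectodysplasin A2 (ENSMUSG00000034457, mm10 chrX:97333840-97377216, minus strand), was the member that fell in MC38 KO. Under anti-PD-1 it had 12.1, 10.3 and 9.89 FPKM in KO libraries, against 20.2, 17.1 and 19.7 in WT libraries. With PBS it had 15.7, 16.6 and 15.3 FPKM in KO libraries, against 16.9, 24.5 and 16.9 in WT libraries. KO lay below WT under both treatments, by little under PBS. On the log2 scale KO minus WT was -0.77 ± 0.132 under anti-PD-1 (limma adjusted p = 0.00498), -0.26 ± 0.132 under PBS (limma adjusted p = 0.184) and -0.51 ± 0.093 averaged (limma adjusted p = 0.00245). Within KO tumours levels were lower under anti-PD-1, with a difference of -0.52 ± 0.132 (limma adjusted p = 0.032), a call lost in 6 of 20 alternatives, those without any of the 3 MC38 KO PBS libraries or MC38 KO anti-PD-1 replicate 2 or 3 among them (0.058 to 0.108). The interaction, -0.51 ± 0.186, did not pass (limma adjusted p = 0.161).

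Zmat3 encodes an RNA-binding zinc-finger protein that acts on splicing (mm10 chr3:32334792-32366014, minus strand). In MC38 under anti-PD-1 it had 2.27, 2.51 and 2.7 FPKM in KO libraries and 2.1, 2.6 and 2.05 in WT libraries. Under PBS it had 2.84, 2.92 and 3.29 FPKM in KO libraries, against 1.99, 2.12 and 2.03 in WT libraries. Genotypes overlapped under anti-PD-1 and were separate under PBS, where the log2 difference was 0.40 ± 0.0914 (limma adjusted p = 0.0112). In B16 the 6 KO libraries had 4.57 to 7.15 FPKM with a median of 6.61, and the 6 WT libraries 6.45 to 7.77 with a median of 7.09. The averaged B16 difference was -0.15 ± 0.0804 (limma adjusted p = 0.195). The KO effect differed between the lines by 0.40 ± 0.1 (limma adjusted p = 0.00526), but by 0.07 after correction for transcript length (0.581). In B16 under anti-PD-1 the KO minus WT difference was -0.24 (limma adjusted p = 0.108), and 0.32 after that correction (0.0287).

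Trp53inp1 encodes a stress protein of autophagy and p53 phosphorylation (mm10 chr4:11156431-11174379, plus strand). In MC38 it had 2.72, 5.49 and 3.2 FPKM in KO anti-PD-1 libraries, against 2.66, 2.58 and 2.47 in WT anti-PD-1 libraries. The PBS libraries had 2.33, 2.18 and 1.47 FPKM in KO libraries, against 2.95, 3.3 and 2.55 in WT libraries. KO was above WT under treatment and below WT without it, each time without overlap, and neither difference passed (0.39 and -0.40, limma adjusted p = 0.206 and 0.144). In B16 KO anti-PD-1 libraries it had 5.29, 9.13 and 6.44 FPKM, against 8.7, 11.7 and 11.8 in WT anti-PD-1 libraries. The B16 PBS libraries had 12, 14.3 and 13.7 FPKM in KO and 11.2, 9.61 and 14.1 in WT. It was lower in treated KO than treated WT tumours, with a difference of -0.58 ± 0.185 (limma adjusted p = 0.0283), with 1 KO library inside the WT range, and not after correction for length (-0.23, 0.342). It was lost in 7 of 20 alternatives, with no filter (0.0721), with the 6 libraries alone (0.0658) and without B16 WT anti-PD-1 replicate 2 or 3 or B16 KO anti-PD-1 replicate 1 or 3 (0.081, 0.0939, 0.109 and 0.0677).

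**Figure D3:**
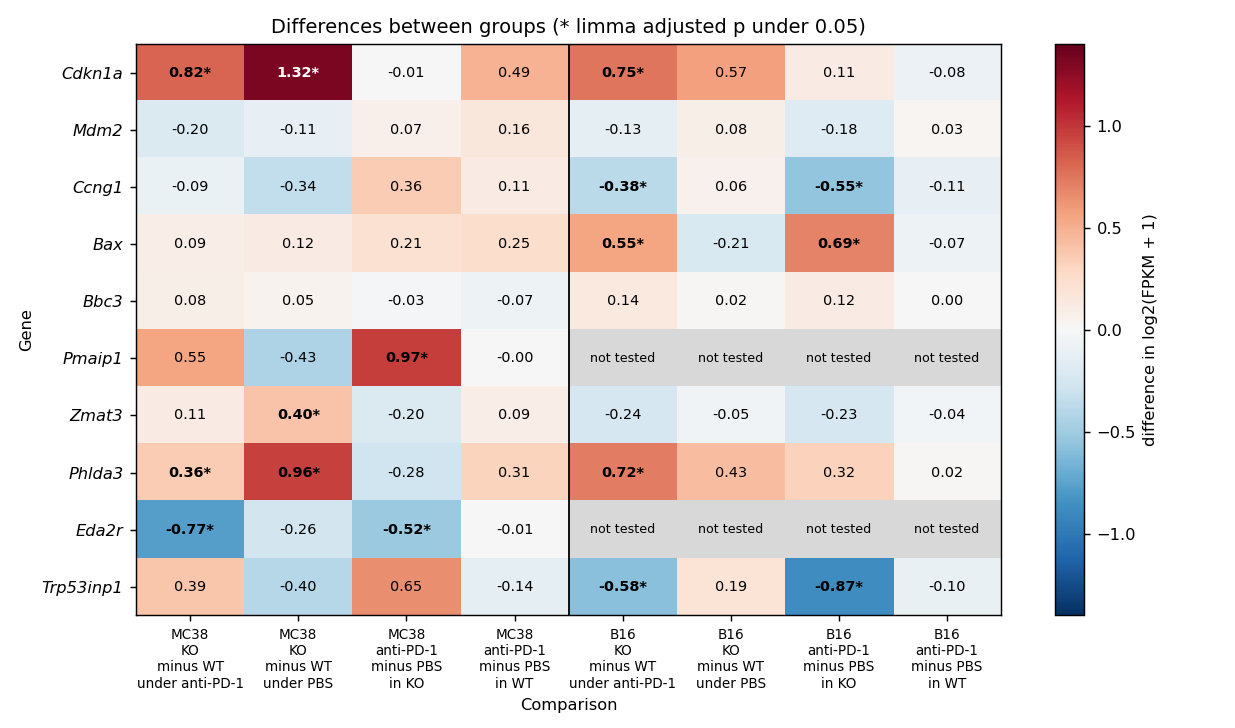
Differences in log2(FPKM + 1) for the 10 genes (rows) in 8 comparisons (columns), MC38 left of B16; colour and number give the difference and an asterisk marks a limma adjusted p under 0.05. Cdkn1a and Phlda3 are positive in all 4 KO against WT columns, and the anti-PD-1 against PBS columns for WT tumours hold no call.

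Anti-PD-1 against PBS gave calls among the members in KO tumours only. In WT tumours none was called in either line (0 of 10 and 0 of 8), and limma called 0 genes of all those tested. Unadjusted p was under 0.05 for 1953 genes in MC38 and 281 in B16, and limma with all 24 libraries in one fit called 79 and 1. In MC38 KO tumours 2 of 10 members were called, Pmaip1 higher and Eda2r lower, against 8.99% of all genes. In B16 KO tumours 3 of 8 were called, against 43.9% of all genes, so the share of members is near that of genes at large. Bax rose by 0.69 ± 0.133 there (limma adjusted p = 0.00222). Ccng1 and Trp53inp1 fell, with differences of -0.55 ± 0.116 and -0.87 ± 0.185 (limma adjusted p = 0.00357 and 0.00361). These 3 B16 calls held after correction for transcript length (0.0181, 0.0114 and 0.0341). Zmat3 changed sign under that correction, from -0.23, not called (limma adjusted p = 0.122), to 0.30, called (0.0346). A genotype by treatment interaction was called for Phlda3 in MC38 (-0.59 ± 0.13, limma adjusted p = 0.0434; 2.44% of all genes) and for Bax in B16 (0.76 ± 0.188, limma adjusted p = 0.0168; 23.5% of all genes). The Phlda3 interaction was called in 5 of 19 alternatives, and leaving out any 1 library other than MC38 KO PBS replicate 1 gave adjusted p from 0.0544 to 0.0967. That of Bax was 0.50 after correction for length (0.078).

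The B16 KO anti-PD-1 libraries differed from other B16 libraries in a way that followed transcript length. Against treated WT tumours, the median log2 difference of protein-coding genes was 0.37 for genes whose longest transcript is under 2 kb, 0.03 for 2 to 4 kb, -0.26 for 4 to 6 kb and -0.56 for 6 kb and over, while under PBS these medians were -0.07 to -0.04. Bax (1.10 kb) and Phlda3 (1.44 kb) are short, Trp53inp1 (5.43 kb) and Zmat3 (7.80 kb) long, and Cdkn1a (2.08 kb) and Ccng1 (3.51 kb) fall in the class between 2 and 4 kb. With each library corrected for its length trend, Cdkn1a and Phlda3 stayed called in treated B16 KO tumours (0.62 and 0.50, limma adjusted p = 0.00661 and 0.00857). Bax did not (0.33, limma adjusted p = 0.061). Skeletal muscle markers summed to 8.79 to 1633 FPKM in those 3 libraries and to 1.33 to 2.45 in the treated WT libraries, red blood cell markers to 1012 to 15524 and 333 to 2559, and macrophage markers to 498 to 1273 and 109 to 542. T cell markers summed to 6.28 to 20.9 FPKM in the 3 treated KO libraries and to 0.362 to 4.74 in the treated WT libraries. The part of these cell types in the members' differences was not tested.

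**Figure D4:**
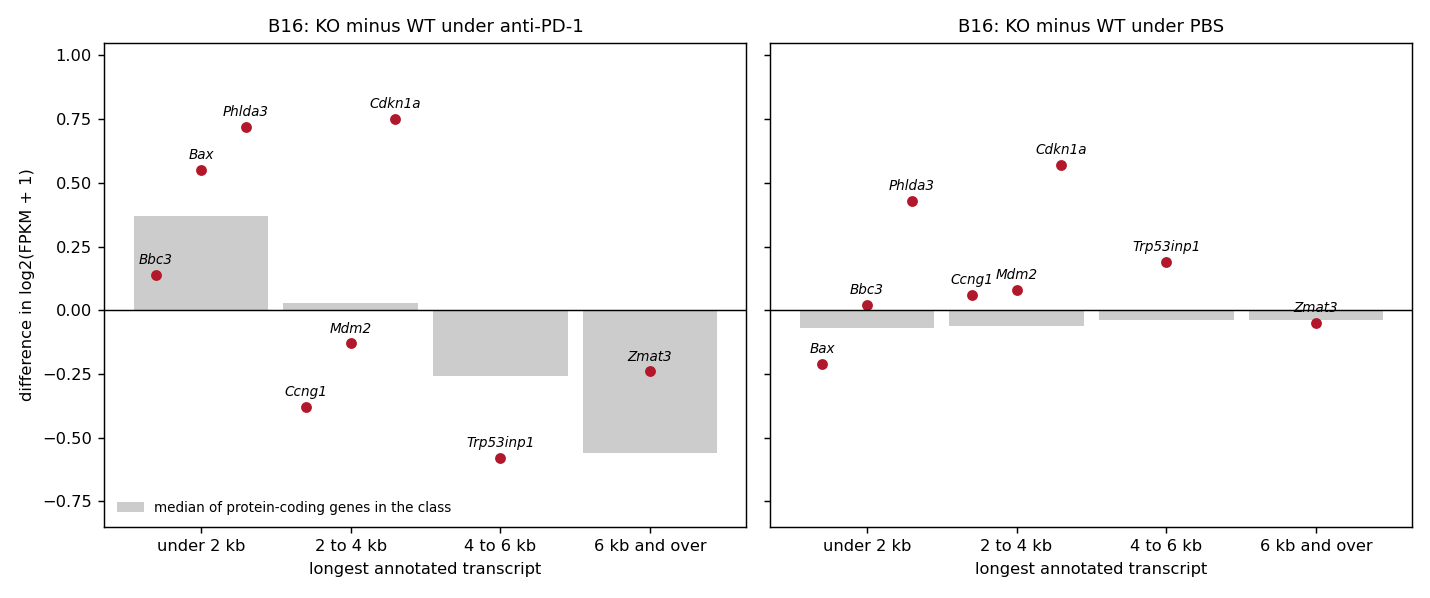
Differences in log2(FPKM + 1) between B16 KO and WT tumours under anti-PD-1 (left) and under PBS (right), by the length of the longest annotated transcript; grey bars are medians of the protein-coding genes tested in a class and red points are the 8 members tested. Under anti-PD-1 the bars run from 0.37 to -0.56 and Cdkn1a and Phlda3 lie above the bars of their classes.

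Host cell markers differed between the MC38 groups. T cell markers (7 genes) summed to 26.2 to 37.9 FPKM in MC38 KO anti-PD-1 libraries and 27.2 to 32.4 in WT anti-PD-1 libraries, and to 3.12 to 5.25 in KO PBS libraries and 22.1 to 33.9 in WT PBS libraries. Macrophage markers summed to 502 to 1276 FPKM in KO PBS and 1653 to 1940 in WT PBS, and fibroblast markers to 148 to 167 and 275 to 382. Where the T cell sums of the genotypes overlapped, under anti-PD-1, KO minus WT was 0.82 for Cdkn1a and 0.36 for Phlda3, and where they did not, under PBS, it was 1.32 and 0.96. The part of host cells in the members' levels was not tested.

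Levels also differed between the lines. In WT tumours 9 of 10 members were called between MC38 and B16, against 72.1% of all genes. Eda2r and Pmaip1 are among the 9, but they reached 1 FPKM in 0 and 1 of the 12 B16 libraries and passed the filter only through MC38, so their calls were fixed by the filter and their levels are given as a description. The following differences assume that the authors' normalization spans both lines, which is not given in the sources used here. Cdkn1a averaged 12.3 ± 2.8 FPKM in the 6 MC38 WT libraries and 44.1 ± 5.82 in the 6 B16 WT libraries (log2 difference -1.78 ± 0.0959, limma adjusted p = 1.93e-12). Trp53inp1, Zmat3, Bax and Ccng1 were also lower in MC38 without overlap, with log2 differences of -1.69, -1.36, -1.05 and -0.57 (limma adjusted p of 1.82e-05 or less). Phlda3, at 30.8 ± 4.21 FPKM in MC38 and 36.6 ± 4.08 in B16, differed by -0.25 ± 0.0768 with overlapping libraries (limma adjusted p = 0.00754).

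In the other direction, Eda2r had 16.9 to 24.5 FPKM in MC38 WT libraries and 0.0474 to 0.344 in B16 WT libraries. Pmaip1 had 1.0 to 2.48 FPKM in MC38 WT libraries and 0.145 to 0.894 in B16 WT libraries. Bbc3 was higher in MC38 by 0.41 ± 0.113, with overlapping libraries (limma adjusted p = 0.00324). Mdm2 was the member not called, at 15.6 ± 1.42 FPKM in MC38 and 16.6 ± 1.23 in B16 (-0.08 ± 0.0645, limma adjusted p = 0.247). The order of members by level, comparable between genes because FPKM is per length, put Ccng1, Phlda3, Bax and Eda2r highest in MC38 WT (medians of 33.0, 31.3, 20.7 and 18.4) and Ccng1, Bax, Cdkn1a and Phlda3 highest in B16 WT (48.4, 44.3, 43.6 and 34.9). Neighbours in these orders overlapped in their library ranges except Phlda3 and Bax in MC38, where the lowest Phlda3 value was 26.0 and the highest Bax value 25.1 FPKM. The averaged KO effect was called as different between the lines for 3 of 10 members, Cdkn1a, Zmat3 and Eda2r (31.3% of all genes). For Eda2r the difference of -0.53 restates the MC38 effect of -0.51, since B16 levels were near 0, and it was not called with a pseudocount of 0.1 (limma adjusted p = 0.134).

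Genes upstream of the panel were read from a list of 18 p53 regulators. Trp53 RNA itself averaged 18.2 FPKM in MC38 KO anti-PD-1, 18.4 in KO PBS, 18.6 in WT anti-PD-1 and 17.0 in WT PBS, and was called in no KO against WT comparison of either line. In B16 KO tumours it was higher under anti-PD-1 than under PBS, 17.1 against 12.7 FPKM (0.41 ± 0.105, limma adjusted p = 0.0098). That comparison holds the B16 KO anti-PD-1 libraries that stood apart, and 43.9% of all genes were called in it. In MC38 averaged over treatments, 2 of 16 tested regulators were higher and 2 lower in KO, near the 13.4% and 14% of all genes, and 1 and 1 after correction for length. Cdkn2a, the INK4a/ARF locus whose ARF product blocks MDM2, had 6.57 FPKM in KO and 4.44 in WT (0.48 ± 0.0899, limma adjusted p = 0.00306), Usp7, the deubiquitinase of MDM2 and p53, differed by 0.15, and Chek2 and the ribosomal protein gene Rpl5 were lower (-0.80 and -0.20). Under PBS the acetyltransferase gene Ep300 was higher by 0.24 (limma adjusted p = 0.0477), a call made in 3 of 20 alternatives and lost after correction for length (0.14, 0.144). Cdkn2a was listed at 0 in 10 of the 12 B16 libraries and reached 0.247 FPKM at most. In B16 under anti-PD-1, 1 of 15 regulators was higher and 10 were lower in KO, beside 14.9% and 25.9% of all genes, with the ATM kinase gene at 1.46 FPKM in KO and 9.63 in WT (-2.10 ± 0.135, limma adjusted p = 8.21e-06). The others lower were the kinase genes Hipk2 (-1.41), Prkdc (-0.96), Chek1 (-0.89), Atr (-0.71) and Chek2 (-0.31), the gene Ep300 (-1.03), the MDM2 partner gene Mdm4 (-0.68), the damage adaptor gene Trp53bp1 (-0.47) and Usp7 (-0.45), and the ribosomal protein gene Rpl11 was higher (0.52). After correction for length 2 were higher and 5 lower, Atm still among them (-1.43, limma adjusted p = 2.08e-05), whereas Mdm4 stood at -0.17 (0.175).

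Other p53 targets, a list of 32, moved in both directions. In MC38 averaged over treatments 8 of 28 tested were higher and 5 lower in KO, where 13.4% of all genes were higher and 14% lower. Under PBS 4 were higher and 4 lower, beside 11.9% and 11.6% of all genes, and Tigar and Sesn2 had the largest differences upward (1.13 and 1.00, limma adjusted p = 0.000422 and 0.00074). Averaged, Tigar, an inhibitor of glycolysis, had 9.25 FPKM in KO and 4.37 in WT (0.94 ± 0.0954, limma adjusted p = 8.23e-05), and Sesn2, a stress-induced inhibitor of mTORC1, 13.1 in KO and 7.18 in WT (0.78 ± 0.0932, limma adjusted p = 0.000216). The Sesn2 relative Sesn1 was lower under PBS, 4.14 against 8.14 FPKM (-0.83 ± 0.172, limma adjusted p = 0.00669), as was Dcxr, a carbonyl reductase, at 0.686 and 2.4 FPKM (-1.01 ± 0.195, limma adjusted p = 0.00474). Of the 28, 4 were higher and 2 lower in MC38 KO tumours given anti-PD-1, beside 5.01% and 7.05% of all genes, with Sfn, which encodes the cell-cycle protein 14-3-3 sigma, higher (0.60 ± 0.123, limma adjusted p = 0.0115) and Apaf1, the apoptosome scaffold, lower (-0.65 ± 0.174, limma adjusted p = 0.0335). The averaged KO effect in MC38 minus that in B16 was 1.02 for Tigar, 0.92 for Sesn2 and 0.85 for the death receptor gene Tnfrsf10b (limma adjusted p = 5.1e-05, 4.82e-05 and 5.65e-06). Tnfrsf10b was higher in KO in MC38 averaged over treatments (0.35 ± 0.0517, limma adjusted p = 0.000752), with libraries separate under PBS and overlapping under anti-PD-1. In B16 it was lower in KO (-0.50), at 0.549 to 1.04 FPKM against 1.2 to 1.77 in WT. It passed the filter in B16 only through WT, so the B16 difference and its part in the 0.85 are given as a description.

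In B16 under anti-PD-1, 7 of 28 were higher and 4 lower in KO, beside 14.9% and 25.9% of all genes, and 3 and 3 after correction for length. The adenylate kinase gene Ak1 was higher (0.90 ± 0.236, limma adjusted p = 0.0113). It had 18, 10.4 and 7.64 FPKM in the 3 KO libraries, whose skeletal muscle markers summed to 1633, 144 and 8.79 FPKM, and the part of muscle in this difference was not tested. Higher too was the antiproliferative gene Btg2 (0.76 ± 0.265, limma adjusted p = 0.0407), but Btg2 was not called after correction for length (0.0664). Apaf1 and the translesion polymerase gene Polk were lower (-1.22 ± 0.145 and -0.88 ± 0.11, limma adjusted p = 0.000131 and 0.000176). Under PBS limma called 0 of the 28.

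Cell cycle genes known to be repressed downstream of p21 were lower in part. In MC38 under PBS 1 of 17 was higher and 2 lower in KO, beside 11.9% and 11.6% of all genes. Under anti-PD-1 0 were higher and 2 lower, beside 5.01% and 7.05%. Averaged over treatments in MC38, 0 of 17 were higher and 5 lower in KO, Aurkb, Ccna2, Cdk1, E2f1 and Mybl2, beside 14% of all genes lower. E2f1, the transcription factor of S-phase entry, had 11.5 FPKM in KO and 19.6 in WT (-0.72 ± 0.063, limma adjusted p = 3.43e-05), and Cdk1, the mitotic kinase, 21.2 and 26.7 (-0.31 ± 0.0554, limma adjusted p = 0.0021). In B16 averaged over treatments 0 were higher and 7 lower, beside 19% of all genes lower, led by the proliferation markers Cenpf (-0.67 ± 0.0871, limma adjusted p = 0.00057) and Mki67 (-0.63 ± 0.0928, limma adjusted p = 0.00103), both long transcripts that stood at -0.28 and -0.27 after correction for length (0.0227 and 0.0236). In B16 under anti-PD-1, 1 of the 17 was higher and 6 lower in KO, beside 14.9% and 25.9% of all genes. Under PBS 0 of the 17 were called by limma in B16. There Mki67 averaged 57 FPKM in KO and 57.3 in WT, against 23.3 in KO and 56.5 in WT under anti-PD-1. Ccna2, the cyclin of S phase, was called lower in both lines, but in B16 in 5 of 19 alternatives. The averaged KO effect on E2f1 differed between MC38 and B16 by -0.67 ± 0.0927 (limma adjusted p = 3.13e-05). In B16 under PBS, E2f1 averaged 10.4 FPKM in KO and 13.2 in WT, without overlap though not called. Under anti-PD-1 it averaged 13.3 in B16 KO and 11.5 in B16 WT, with overlap, so the B16 average joins opposite directions. Of 12 other BCL-2 family genes, 2 of 10 tested were higher in MC38 KO averaged over treatments, Bid (0.49 ± 0.074, limma adjusted p = 0.000897) and Mcl1 (0.19), and 1 was lower, Bcl2l1 (-0.34), beside 13.4% and 14% of all genes. In B16 averaged over treatments 1 of 10 was called higher and 0 lower in KO, beside 26.5% of all genes called in either direction. This was Bcl2l1, the gene of the survival protein BCL-XL (0.35 ± 0.117, limma adjusted p = 0.0457, called in 6 of 19 alternatives). After correction for length 0 were called, and 0 of 10 were called in B16 under PBS. The KO effect on Bcl2l1 differed between MC38 and B16 by -0.69 ± 0.144 (limma adjusted p = 0.00123).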

How the data were processed

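RNA of mouse tumours was sequenced in 24 libraries, 8 groups of 3 taken from the labels. The submitters' processing notes name the build mm10 and the tools Cuffnorm, STAR 2.5, DESeq and FastQC, without saying what each did. The deposited values were taken as FPKM, a unit named in no header: they are not whole and their sums are unequal. The authors' normalization across libraries is not given in the sources used here. Low values were whole multiples of 1 read (within 0.02) in 16.9% to 23.7% of cases, so counts were not recovered and no count test was run. No pair of the 276 library pairs shared more than 0.0302% of values. Symbols came from GENCODE M21 (55154 IDs matched, 181 did not), and promoters from RefSeq (7 of 10 members matched).

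Values were analysed as log2(FPKM + 1) with limma 3.58.1 in R 4.3.3, with 1 mean per group, a mean-variance trend and Benjamini-Hochberg adjustment over every gene that reached 1 FPKM in 3 or more libraries of a line (or of all 24, 15655 genes, for comparisons between lines). Fold changes on this scale understate those of low genes. Calls have an adjusted p under 0.05. Simulated data were used to test the fit. In the correction for transcript length, each library's trend of log2 deviations with longest transcript length was subtracted (lowess); it and the fit without the B16 KO anti-PD-1 libraries were added after seeing the data. Other alternatives were scaling, filter, pseudocount of 0.1, variance model, libraries in the fit and leaving out each library.

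Members and lists were chosen with earlier results of these data known. Genes named are the members, Chek2, Trp53, called regulators, per comparison the 4 called wider targets with the largest difference, and the 3 genes most like Cdkn1a and Mdm2. Cell cycle, BCL-2 and overlapping genes fell outside this rule, and were picked with their values known. Replicates are numbered in accession order.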

Additional observations from a re-analysis of the deposited data

Results flagged for a closer look

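A difference between groups in the effect of genotype or treatment was found for these members, and no explanation was weighed. The interaction of genotype and treatment was -0.59 for Phlda3 in MC38 (limma adjusted p = 0.0434), called in 5 of 19 alternatives, and 0.76 for Bax in B16 (limma adjusted p = 0.0168), called in 18 of 19. The averaged KO effect differed between MC38 and B16 by 0.41 for Cdkn1a, 0.40 for Zmat3 and -0.53 for Eda2r (limma adjusted p = 0.0265, 0.00526 and 0.00304). Eda2r had at most 0.379 FPKM in B16 and passed the filter only through MC38, so that its difference restates the MC38 effect of -0.51 and is no comparison of the lines. With a pseudocount of 0.1 the Eda2r difference was -0.60 (limma adjusted p = 0.134).

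In other pairs of comparisons the groups did not overlap and moved opposite ways. Trp53inp1 differed between MC38 KO and WT by 0.39 under anti-PD-1 and by -0.40 under PBS, and the interaction of 0.79 did not pass (limma adjusted p = 0.135). Phlda3 differed between anti-PD-1 and PBS by -0.28 in MC38 KO and by 0.31 in MC38 WT tumours. Between anti-PD-1 and PBS in KO tumours, Ccng1 differed by 0.36 in MC38 and -0.55 in B16, Phlda3 by -0.28 in MC38 and 0.32 in B16, and Trp53inp1 by 0.65 in MC38 and -0.87 in B16. After correction for transcript length the B16 differences were -0.50 for Ccng1, 0.06 for Phlda3 (limma adjusted p = 0.722) and -0.55 for Trp53inp1. These differences between the lines in the response to anti-PD-1 were not tested.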

How the results depend on the processing

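For the 36 called results of single members, 832 alternative values were computed: 778 kept direction and call, 54 kept direction but lost the call, and 0 reversed. No paired analysis was possible because the labels give no replicate numbers that pair libraries across groups. Counts of called members moved as follows. For anti-PD-1 against PBS in MC38 KO (2) there were 0 with no filter on low values and 4 with length correction. The MC38 interaction (1) gave 0 with no filter, 0 with no mean-variance trend and 0 with all 24 libraries in one fit. KO against WT in B16 under PBS (0) gave 2 with all 24 libraries in one fit. KO against WT in B16 under anti-PD-1 (5) gave 3 with no filter, 3 with length correction and 3 with its 6 libraries alone. Anti-PD-1 against PBS in B16 KO (3) gave 5 with protein-coding genes rescaled and 5 with all 24 libraries. The B16 average (2) gave 4 with protein-coding genes rescaled, and the B16 interaction (1) gave 3 with that rescaling, 0 with length correction and 2 with all 24 libraries. Leaving out 1 library gave 0 to 3 for anti-PD-1 in MC38 KO, 0 to 1 for the MC38 interaction, 3 to 5 for KO against WT in B16 under anti-PD-1, 3 to 4 for anti-PD-1 in B16 KO, 2 to 3 for the B16 average and 1 to 3 for the B16 interaction. Elsewhere it gave 3 to 4 (MC38 under PBS), 2 to 3 (MC38 under anti-PD-1), 4 to 5 (MC38 average), 2 to 3 (KO effect between lines) and 9 to 9 (WT between lines), and 0 to 0 for B16 under PBS and anti-PD-1 in WT of both lines. The cause was not tested, except that fewer libraries or more genes tested change the adjustment by construction. Without counts, no floor could be set for levels near 0.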
